A study of Mus musculus with 20 samples.

Results

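Modified RNA was compared with input RNA in the myocardium of wild-type mice, the 5 animals labelled NPRA+/+ (WT1 to WT5). Both fractions came from the same mouse and were hybridised to the same array, so the 10 wild-type samples of the 20 in the series gave 5 paired log2 ratios per site. Of 14408 site probes on the array, 8580 (59.6%) were kept because both colours were well above background in at least 3 of the 5 mice. All mice were male, and no treatment was given, per the labels. The other 10 samples came from 5 mice labelled NPRA-/- (KO1 to KO5), a conditional knockout on NprAflox/flox described in the series title as cardiac specific. The Cre driver, the age of the mice and the alleles carried by the wild-type animals are not given in the sources used here.

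N6-methyladenosine (m6A) is a methyl mark on adenosines inside RNA, laid down mainly by a methyltransferase complex with METTL3 and METTL14 and removed by demethylases such as FTO and ALKBH5. In the heart it has been tied to cardiomyocyte growth and contractile function. NPRA is the receptor for atrial and B-type natriuretic peptides, hormones the heart muscle releases when stretched. The bacterial enzyme MazF cuts RNA at an unmethylated ACA and spares the methylated one, so a site that carries m6A can survive digestion. The site probes are named after DRACA, a form of the m6A consensus that holds an ACA (D stands for A, G or U, and R for A or G). A high ratio therefore marks a site with much RNA left after digestion and antibody enrichment for its input, and a low ratio a site with little.

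Modified RNA, digested with MazF and enriched with an anti-m6A antibody, was labelled with Cy5, and undigested input with Cy3. No array had the dyes swapped, and a bias of either dye therefore cannot be told apart from enrichment at any site. The modified fraction started from a range of RNA amounts at or above that of the input, per the labels' protocols, so a ratio is no share of methylated molecules. Ratios are given as log2 Cy5/Cy3 of the dye-normalized processed signal, minus the median kept site of the same array. A value of 0 is thus the median site, and the sign of a ratio is relative to that site.

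The probe identifiers could not be tied to genes (0 of 14408 matched the gene table), so sites are described by identifier and the labelled tissue could not be checked against marker genes. The Cy3 signal was well above background at 93.6% to 97.1% of sites in every wild-type mouse. The Cy5 signal was above background at 78.2%, 58.5%, 76.0%, 48.0% and 45.2% of sites in WT1 to WT5. WT4 and WT5, the lowest, lay on a second slide, whereas WT1 to WT3 shared a slide with the knockout mice (64.1% to 74.9%). The 2 slides also differed in the array row that wild-type samples occupied, so slide and row cannot be told apart here. The ratios of 3 of the 5 wild-type mice correlated most closely with a knockout mouse. They were WT2 (r = 0.961 over kept sites with KO4, at most 0.959 with wild type), WT3 (0.976 with KO5, at most 0.954) and WT5 (0.937 with KO4, at most 0.918). WT3 and KO5, the most alike of all pairs, sat in the same array column. WT1 with KO1 (0.913) and WT2 with KO2 (0.937) also shared a column. WT1 and WT2 were more like KO4, in another column (0.947 and 0.961). Whether the column had a part in any likeness was not tested. Results without WT3 are given where they rest on it.

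The filter was met in all 5 mice by 6002 sites, in 4 by 1139 and in 3 by 1439. Modified RNA set this number: input was well above background in all 5 mice at 13271 sites, modified RNA at 6008. At 1825 sites input was above background in every mouse and modified RNA in none. Sites just inside the filter (3 mice, n = 1439) had a median ratio of -0.56 and those just outside (2 mice, n = 1950) a median of -0.88. Their median scaled inputs, as log2 relative to each array's 75th percentile, were -1.79 and -2.21.

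The log2 ratio differed widely between sites, and the 5 mice repeated the order of the sites closely. With no dye swap, an effect of a dye or a probe that is the same on every array would repeat as well. The SD of the log2 ratio over kept sites was 1.48, 1.65, 1.70, 1.60 and 1.55 in WT1 to WT5, a mean of 1.60 ± 0.09 (SD, n = 5 mice). WT1 had the narrowest distribution and WT3 the widest, and the mean without WT3 was 1.57. Within slide 1 the mean was 1.61 and within slide 2 it was 1.58. For the mean over mice of each site, the 5th percentile was -2.82, the 95th was 2.27, and the extremes were -6.37 and 4.54. The span from the 5th to the 95th percentile was 5.09 on the log2 scale, a 34.1-fold range in the ratio. The spread was smaller under normexp background correction with an offset of 50 in both colours. The SD over sites was then 1.04, without dye normalization, and 0.91 with loess as well. That offset was larger than the median background-subtracted Cy5 signal of all sites, 4.09 to 15.7 in the wild-type mice. The parts of the correction and of the offset in this change were not tested. Sites more than 2-fold off were more often low than high as the size grew: 605 sites lay at or above 2 and 1112 at or below -2 (7.05% and 13.0%), and 108 lay at or above 3 against 328 at or below -3 (1.26% and 3.82%). Within 1 of the median site in either direction lay 3969 sites (46.3%).

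**Figure D1:**
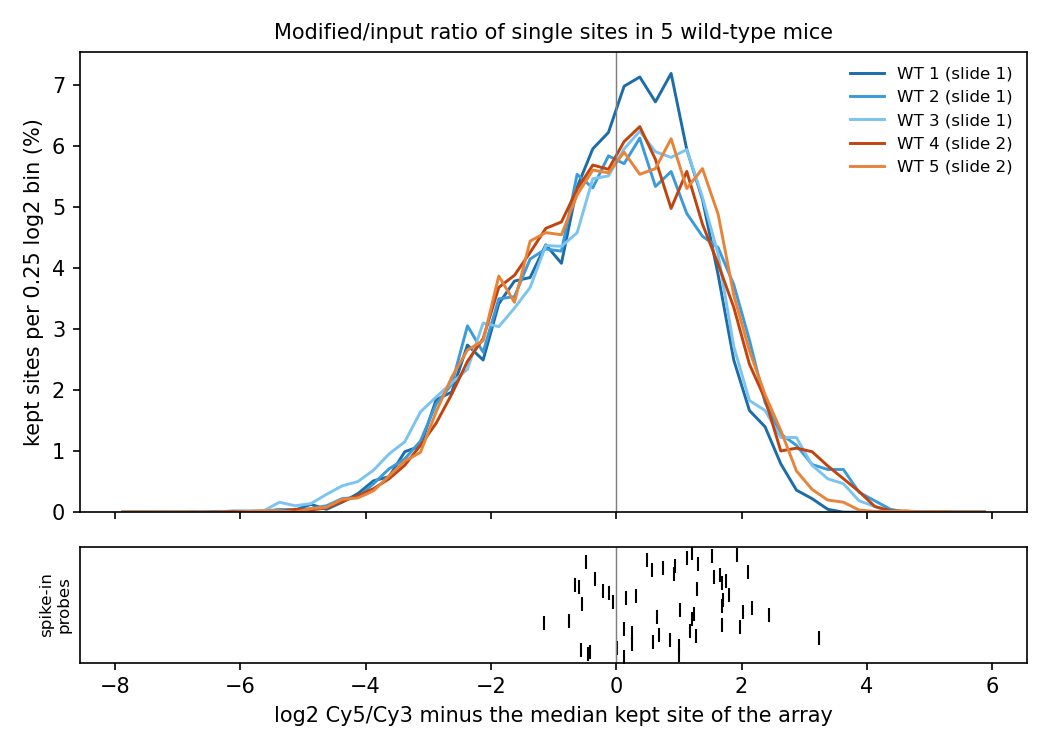
Distribution over kept sites of the log2 Cy5/Cy3 ratio, centred on each array's median site, in the 5 wild-type mice. The y axis is the percent of kept sites per bin, and ticks in the lower panel are the mean ratios of the kept spike-in probes. The 5th percentiles run from -3.16 to -2.73 and the 95th from 1.94 to 2.53; WT1 has the narrowest upper side, and the lower tail is the longer one.

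The sites at the far ends are given as a description, with no test, since they were chosen as past the threshold and on 1 side of the median in all 5 mice. At the site ASMM10m6ADRACA1004715784, the ratio was 3.38, 4.15, 3.69, 3.72 and 4.67 in WT1 to WT5, a mean of 3.92 ± 0.50 (SD, n = 5). Its Cy5 processed signal ran from 7288 to 14088 and its Cy3 signal from 470.0 to 584.0. All 5 mice lay far above the median site, whose level the mean exceeded 15.2-fold. At ASMM10m6ADRACA1000455194, the ratio was 3.19, 3.87, 4.16, 4.30 and 3.37, a mean of 3.78 ± 0.49. Every mouse was again high, 13.7-fold over the median site on average, with Cy3 signals of 126 to 332. Input at these 2 sites fell in the 7th and the 4th decile of all sites ordered by input. With normexp background correction their means were 2.09 and 1.47, smaller but still high.

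The lowest ratios were at probes with bright input. At ASMM10m6ADRACA1002215444, the ratio was -6.31, -6.59, -7.40, -6.15 and -5.38, a mean of -6.37 ± 0.73 (SD, n = 5). All 5 mice lay far below the median site, by 82.5-fold on average. The Cy3 signal was between 298719 and 671641 and the Cy5 signal between 5602 and 11132, so modified RNA was well detected at this site although its ratio was the lowest. Before dye normalization its mean ratio was -4.30, so the size of the deficit changed with that step and its direction did not. At ASMM10m6ADRACA1002301994, the ratio was -6.62, -6.16, -7.05, -5.91 and -5.99, a mean of -6.35 ± 0.48. The 5 mice were alike, 81.4-fold below the median site on average, and the mean before dye normalization was -5.75. Both sites belonged to the highest decile of input.

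Sites at the middle moved around 0. At ASMM10m6ADRACA1004351524, the ratio was -0.51, -0.26, 0.04, 0.08 and 0.66, and at ASMM10m6ADRACA1003616564 it was -0.35, -0.01, -0.01, -0.01 and 0.38. WT1 was lowest and WT5 highest at both. They were chosen for a mean nearest 0, so no test is given for them. Input there fell in the 8th and 9th deciles.

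**Figure D2:**
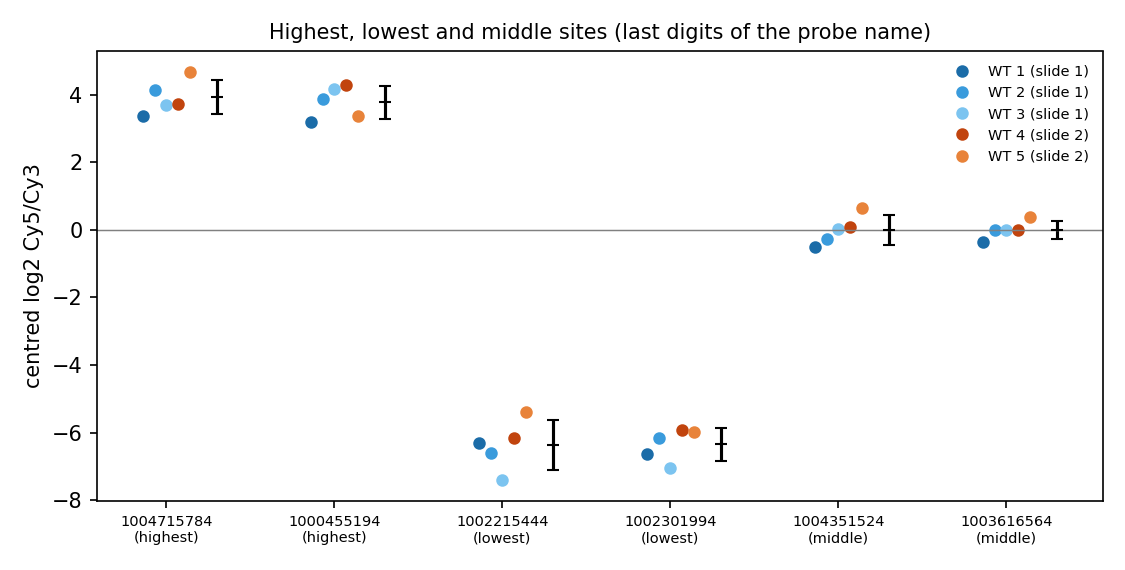
Log2 Cy5/Cy3 ratio in each wild-type mouse at the 2 highest, the 2 middle and the 2 lowest sites, labelled by the last 10 digits of the probe identifier. Points are mice coloured by slide, and the black marks are the mean with its SD; the pairs average 3.92 and 3.78, then -6.37 and -6.35, then 0, and points of different pairs do not overlap.

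Most sites differed from the median site by more than the uncertainty of their mean over 5 mice. Of 8580 sites tested with limma, 6911 (80.5%) passed a Benjamini-Hochberg adjusted p of 0.05, 3434 higher (40.0%) and 3477 lower (40.5%). Centring on the median sets this near equal split. Centred on the spike-in probes in place of the median site, 1784 sites were higher and 5150 lower. With a size of at least 2-fold as well, 2178 sites were higher (25.4%) and 2433 lower (28.4%); against the spike-in probes these were 788 and 3885. The 2-fold counts also changed under normexp with its offset of 50. They were 562 higher and 1628 lower with normexp, and 961 higher and 738 lower with normexp and loess. Without WT3, 6675 sites passed. The smallest mean ratio that passed was 0.30 in size, and the median standard error over sites was 0.16. These counts describe how precisely 5 mice placed each site on its array, not how many sites carry m6A.

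The differences between sites were much larger than those between mice. Over the 8562 sites with a value in all 5 mice, 92.8% of the variance of the ratio lay between sites. The SD over mice of a kept site had a median of 0.35, with a 5th percentile of 0.15 and a 95th of 0.75. It was larger where fewer mice passed the filter, with medians of 0.46 at sites kept in 3 mice, 0.41 in 4 and 0.31 in 5. Of the 6002 sites above background in every mouse, 2809 were above the median site in all 5 mice, 2148 below it in all 5 and 1045 on both sides. On the same side in every mouse were thus 82.6%. The median ratio of the 6002 sites was 0.27, against -0.56 at sites kept in 3 mice, so their excess above the median site goes with the filter. Among the 32 kept probes with the most spots (up to 10 each), the median SD over spots of 1 array was 0.09 to 0.16. Over mice it was 0.27 for these probes, which also holds any difference between arrays. Probes printed in 3 spots were left out of this comparison.

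The correlation of the ratio between 2 wild-type mice over kept sites had a median of 0.932 (0.902 to 0.959, 10 pairs). The median was 0.953 for the 4 pairs on the same slide (0.918 to 0.959) and 0.922 for the 6 pairs across slides (0.902 to 0.939), ranges that overlap through WT4 with WT5. For single channels it was 0.961 to 0.992 for input and 0.937 to 0.978 for modified RNA. WT5 correlated least with the other mice. The sites of an array share its labelling, dye fit and background, so these correlations describe the arrays and no p is given.

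**Figure D3:**
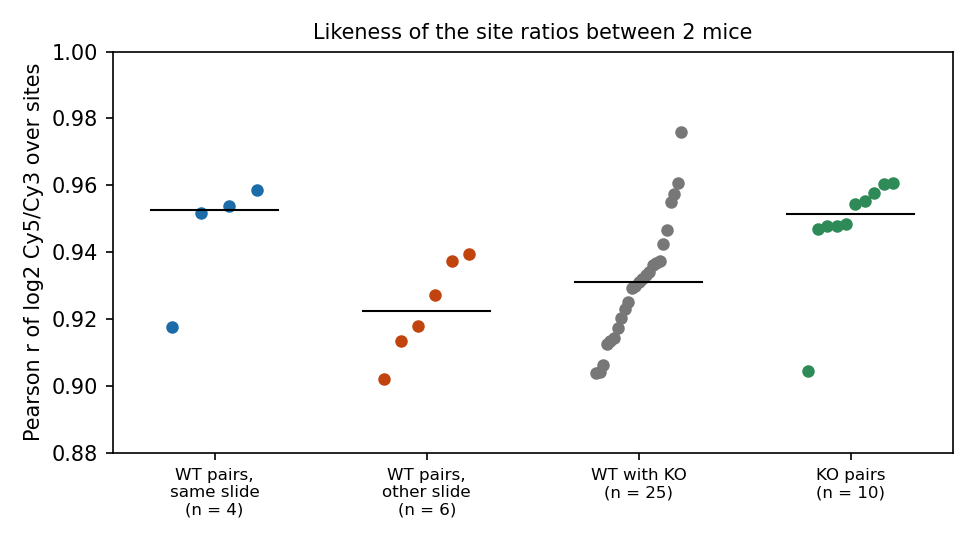
Pearson correlation over kept sites of the log2 Cy5/Cy3 ratio for pairs of mice, with pairs grouped by genotype and by slide. Points are pairs and black lines medians, on an axis that starts at 0.88. The medians are 0.953 for wild-type pairs on 1 slide, 0.922 for those across slides, 0.931 for wild-type with knockout pairs and 0.951 for knockout pairs, with WT3 and KO5 highest at 0.976.

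Spike-in RNA, added in equal amounts to both fractions, gave a background for the spread and the level. Of 102 spike-in probes, 56 met the same filter. Their SD was 0.85, 1.11, 0.98, 1.02 and 1.12 in WT1 to WT5 (mean 1.01 ± 0.11), below that of sites in each of the 5 mice. The site SD exceeded it by 0.58 ± 0.10, or 1.59-fold (1.39 to 1.74). An exact two-sided sign-flip permutation test gave p = 0.0625, the smallest that 5 mice allow, so the design could not reach 0.05. The spike-in probes still spread by a factor of about 2, on RNA that was equal in both fractions. Input was not matched between the 2 sets. The input range of the 2nd decile held 9 kept spike-in probes and 286 kept sites, and that of the highest 7 and 1436. Whether the spike-in SD would be smaller at equal input was not tested.

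The median kept site had a lower ratio than the mean spike-in probe, with input levels not matched. Before dye normalization, the median site lay below the mean spike-in probe by a log2 ratio of -0.83, -1.02, -1.001, -0.81 and -1.01 in WT1 to WT5, a mean of -0.93 ± 0.11 (SD, n = 5). All 5 mice were below, with means of -0.95 within slide 1 and -0.91 within slide 2, and the exact sign-flip permutation p was 0.0625, again the smallest possible. The size depended on which probes entered: it was -0.60 over sites detected in all 5 mice and -0.67 with all spike-in probes of positive signal. Over processed signals it was -0.81. Of the kept spike-in probes, 75.4% lay above the median site on average over mice. The difference varied with input. Over processed signals, the median of kept sites was below that of spike-in probes in input deciles 3, 5, 6, 8, 9 and 10. It was above it in deciles 1, 2, 4 and 7. In the highest decile the medians were -1.38 for sites and 0.26 for 7 spike-in probes, and in the lowest 1.85 and 1.70 (3 probes). Because the fractions could start from unequal RNA amounts, this level is relative to the spike-in RNA alone.

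The ratio fell as the input level rose. Input level was taken from the other 4 wild-type mice, since the mouse's own input is the denominator of its ratio. That takes out only the error of the mouse's own array. Input correlated at 0.961 to 0.992 between wild-type mice, so any effect on Cy3 that a probe has in every mouse stays in both measures. The Spearman correlation over kept sites was -0.56, -0.48, -0.44, -0.43 and -0.41 in WT1 to WT5, a mean of -0.46 ± 0.06 (SD, n = 5). It was -0.49 within slide 1 and -0.42 within slide 2. It was negative in every mouse, strongest in WT1, and -0.45 without WT3. With input from the mouse itself it was -0.46, and with input from the knockout mice -0.51. Sites share array, depth and dye fit, so the correlation is a description. Modified signal still rose with input over kept sites (Spearman correlation 0.61 ± 0.03), with a slope of 0.67 ± 0.05 on the log2 scale. That slope is less than in proportion, but low-input sites were kept only with a high modified signal, which by itself flattens a slope. No slope was computed without the filter.

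When all 14408 sites were divided into deciles of input, the share kept rose from 5.62% in the lowest to 99.7% in the highest. The median ratio of kept sites fell at every step, from 1.85 ± 0.13 in the lowest decile (81 sites) to 0.39 in the 5th and -1.38 ± 0.20 in the highest (1436 sites). A low-input site passed the filter only if its modified signal was high, so kept sites of the low deciles had to have high ratios. Without the filter the medians ran from -0.12 in the lowest decile to -0.54 in the 6th and -1.39 in the highest, and the correlation fell in size to -0.21. The decline in the upper deciles, where nearly all sites were kept, was thus present with and without the filter. Over the lower 6 deciles the median of kept sites fell from 1.85 to 0.11, and without the filter from -0.12 to -0.54. The unfiltered median was already -0.44 in the 2nd decile and -0.47 in the 5th. Cy5 was well above background at 11.8% of sites in the lowest decile and 69.1% in the 6th, on average over mice. Many unfiltered ratios of the low deciles therefore rest on Cy5 near background.

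Dye normalization altered the highest inputs. From the 9th to the highest decile the median ratio went from -1.07 ± 0.11 to -1.38 ± 0.20 after dye normalization, and from -1.06 ± 0.12 to -0.60 ± 0.13 before it. Within the upper 3 deciles of input, the correlation was -0.19 ± 0.07 (SD, n = 5) after dye normalization and -0.04 ± 0.05 before it. In the latter setting the mice lay on both sides of 0, from -0.12 in WT1 to 0.01 in WT3. Over all kept sites the correlation before dye normalization was -0.32. The spike-in probes had a Spearman correlation of -0.32 ± 0.10 with input after dye normalization and 0.06 ± 0.10 before it, although their RNA was equal in both fractions. The part of the dye fit in the relation at sites was not tested.

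**Figure D4:**
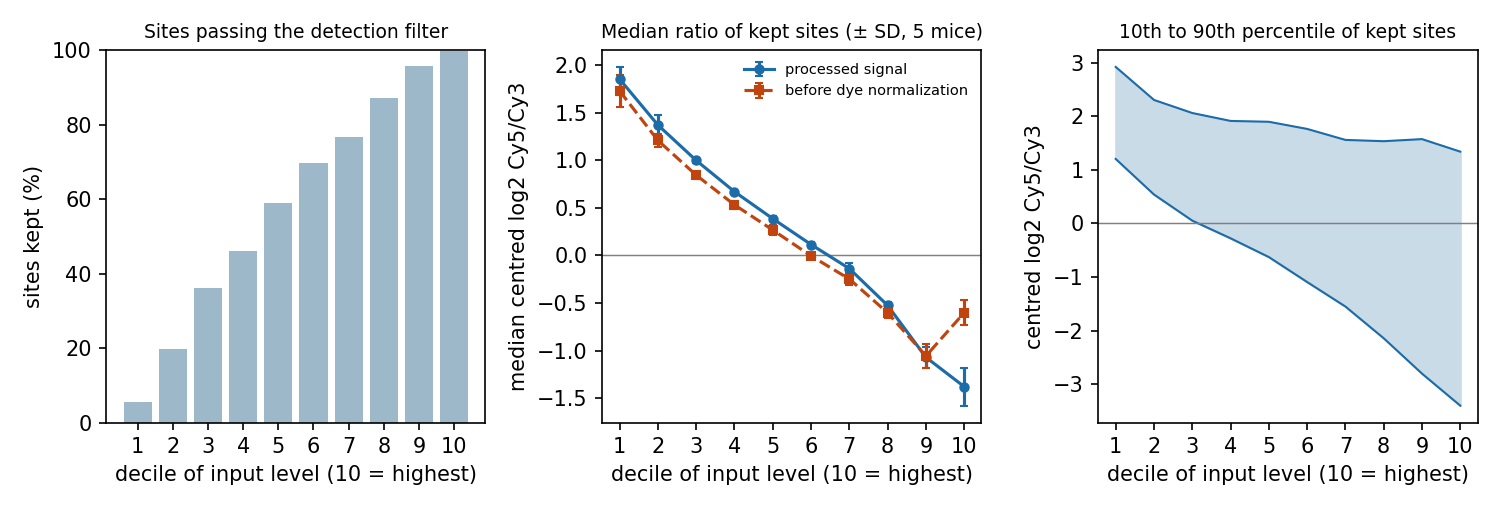
By decile of input level (10 highest) in 5 wild-type mice, the percent of sites kept (left), the median log2 Cy5/Cy3 ratio of kept sites as mean ± SD over mice, with processed signals and before dye normalization (middle), and the span from the 10th to the 90th percentile of site means (right). The median falls from 1.85 to -1.38, before dye normalization the highest decile (-0.60) lies above the 9th (-1.06), and the span of kept sites is 1.72 in the lowest decile, where the filter cut off low ratios, and 4.74 in the highest.

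High input did not mean a uniformly low ratio. In the highest decile, where 99.7% of sites were kept, the span from the 10th to the 90th percentile was 4.74 and the interquartile range 2.91. The 81 kept sites of the lowest decile spanned 1.72, but the filter had cut off the low ratios there, so the deciles cannot be compared in spread. In the highest decile 55.6% of kept sites were at or below -1 while 15.8% were at or above 1. By limma, 352 of the 1436 kept sites in the highest decile were higher than the median site and 936 lower. The median SD over mice of kept sites fell at every step from 0.53 in the lowest decile to 0.29 in the 9th. In the highest decile it rose again to 0.35, about that of the 6th decile (0.35).

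A small number of sites held about as much signal as all the others in both colours. The brightest 144 sites (1%) carried 53.2% ± 2.21 of the Cy3 signal of all sites and 50.7% ± 2.32 of the Cy5 signal (SD, n = 5). Between 74 and 89 of the 144 were the same in both colours, 54.7% on average. Bright input sites were thus often, but not always, the bright modified sites.

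The kept sites with names other than the single-spot DRACA probes had lower medians, with wide overlap between probes. The median ratio of a class, as mean ± SD over the 5 mice, was -0.61 ± 0.20 for the 29 kept probes named control. It was -1.37 ± 0.19 for the 17 named positive control and -0.63 ± 0.08 for the 16 kept DRACA probes printed in 10 spots, against 0.01 for the 8518 with 1 spot. Single probes spread far more, with an SD over probes of 1.60, 1.28, 1.82 and 1.55 in these classes, in that order. Input levels of the classes were not compared. The differences between these classes were not tested, and the files do not say what the control names stand for.

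The test between slides passed 1 site, but it set 3 mice against 2, so this does not show that the slides were alike. Between WT4 and WT5 on slide 2 and WT1 to WT3 on slide 1, the median difference per site was 0.28 in size, below its median standard error of 0.30. By limma with Benjamini-Hochberg, 1 of 8579 sites passed (0.0117%). At an unadjusted p under 0.05 were 830, more than that threshold gives by chance alone if sites are independent. Cy5 was well above background at 70.9% of sites on slide 1 and 46.6% on slide 2, on average over wild-type mice. The site that passed, ASMM10m6ADRACA1003797084, singled out after its values were seen, had ratios of 1.69, 1.54, 1.71, -0.73 and -0.75. WT4 and WT5 lay below the other 3 with no overlap (difference -2.39, SE 0.26, limma adjusted p = 0.0399), but both colours were above background in only 3 of 5 mice, so the difference is no measured fold. The count depended on single libraries and settings: without WT4 it was 44, with WT5 alone on slide 2 and assumed to vary like the mice of slide 1, and with normexp background correction 264.

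The spread and the relation to input were set beside the knockout mice, over the sites kept in wild type. The SD of the ratio was 1.51 ± 0.08 in KO and 1.60 ± 0.09 in WT (SD, n = 5 each), a difference of -0.085 (p = 0.143 by an exact permutation test, two-sided, of 252 assignments, and 0.286 adjusted for 2 measures). The Spearman correlation with input was -0.48 ± 0.04 in KO and -0.46 ± 0.06 in WT, a difference of -0.02 (exact permutation p = 0.524, adjusted 0.524). Both differences were within the spread between mice, and all KO mice lay on slide 1. The 2 highest sites averaged 3.91 and 3.13 in KO, and the 2 lowest -5.50 and -5.83. The mean ratios of the genotypes correlated at r = 0.979 over 8580 sites. Of the 2178 sites at or above 1 in WT, 1921 (88.2%) were so in KO, and of the 2433 at or below -1, 2199 (90.4%). These sites were chosen on wild-type values, and they are 25.4% and 28.4% of the kept sites. The share of all kept sites past these sizes in KO was not computed. No site was at or above 1 in one genotype and at or below -1 in the other (0 sites), and the median difference was 0.20 in size.

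**Figure D5:**
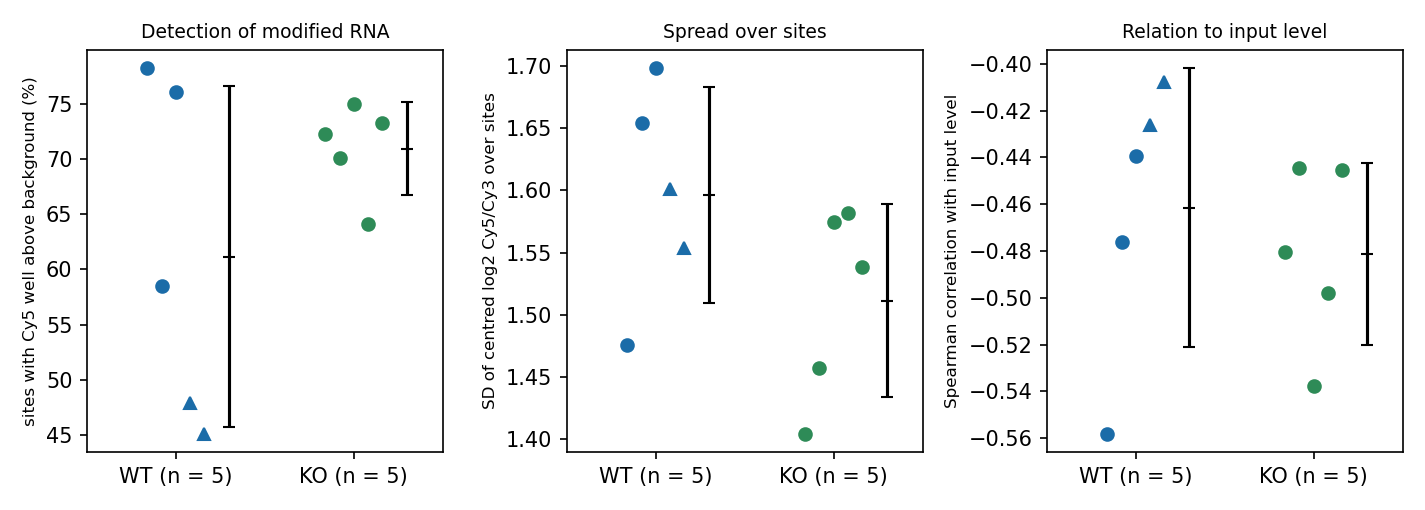
Percent of sites with Cy5 well above background, SD of the log2 ratio over kept sites and the Spearman correlation of the ratio with input level, 1 point per mouse with group means and SD in black, in wild-type and knockout mice (circles slide 1, triangles slide 2). Genotypes overlap in all 3 panels, with means of 1.60 and 1.51 for the SD and -0.46 and -0.48 for the correlation.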

How the data were processed

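Total RNA of 10 mice was read on 10 two-colour arrays; the deposited scans of the modified and input samples of a mouse were identical, so a mouse counted once. Agilent Feature Extraction 11.0.1.1, named in the submitters' processing notes, made the deposited spot intensity values. It subtracted the background and then fitted the dyes of an array to each other by linear and lowess steps, per the file headers. A deposited table of log2 values covers 10004 probes, and each of its columns was found to be the log2 processed signal minus 1 constant. The sources used here do not explain that constant. Its wild-type column medians were -1.45, -1.35, -1.34, -1.32 and -1.36 for Cy5 and -0.79, -0.84, -0.56, -0.88 and -0.79 for Cy3. The table held 8481 of the kept sites and was an alternative only.

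Groups came from the labels. Slides were told from the scan identifiers in the file headers. Control and outlier spots were left out (34 to 53 of 14901 spots per wild-type array were outliers; none, 0, was saturated), spots of a probe were averaged, and signals at or below 0 before dye normalization were floored at 1. Ratios were centred on the array median and tested with limma 3.58.1 (lmFit, eBayes) in R 4.3.3, Benjamini-Hochberg over all 8580 sites; other values were computed in Python 3.11.15. No array count gives a depth; 5 arrays limit the precision. Alternatives were other filters, background corrections (normexp, offset 50, on median spot signals in place of mean spot signals, which were not used here), centring, blocks and left-out mice. The limma steps were tested on simulated data. Named sites were the 2 highest and 2 lowest past the threshold, above background in both colours and on 1 side in all 5 mice and not named controls, and the 2 nearest 0. The members, rules and lists were chosen with earlier results of these data known.

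The 2 colours of a mouse were paired by the array: their deviations from group means correlated at 0.33 to 0.53 within a mouse and -0.33 to 0.30 between mice. The labels call the mice biological replicates and do not say whether they were littermates.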

Additional observations from a re-analysis of the deposited data

Results flagged for a closer look

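Of 31 groups of per-mouse values tested for a mouse far from the others, 1 was picked out, where chance gives about 5%. It was the share of the Cy5 signal held by the brightest 1% of sites in the knockout mice, which was 45.7% in KO5 against 50.7% in the nearest other knockout mouse. No group of wild-type values was picked out (0).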

How the results depend on the processing

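The number of sites off the median, 6911 of 8580, stayed within 1.5 times under 15 of 16 alternatives. The lowest numbers were 5054 of the 6002 sites detected in all 5 mice and 5670 of 8580 with normexp and loess. When no filter was applied, the number was 10422 of 14407. The totals differ, so the order of these counts is not the order of the shares. At 2-fold or more the count was 7206 of 14407 without the filter. It was 2190 of 8580 with normexp and 1699 of 8580 with normexp and loess, against 4611 of 8580. The spread of the ratio was 1.60, but 1.04 with normexp and 0.91 with normexp and loess. The Spearman correlation with input was -0.46, and it was -0.32 before dye normalization, -0.21 without the filter, -0.55 for sites detected in all 5 mice, -0.56 with normexp and -0.35 with normexp and loess. Within the upper 3 deciles of input, chosen after seeing the data as was the input from knockout mice, the correlation was -0.19, and -0.0411 before dye normalization. The count of sites differing between slides was 264 with normexp, 53 with normexp and loess, and 0 before dye normalization, 0 without the filter and 0 for sites detected in all 5 mice. The KO minus WT difference in spread turned to 0.0199 with normexp and 0.0237 with normexp and loess, and that in the correlation to 0.0099 on slide 1 and 0.0033 without the filter; the exact permutation p of these 4 was 0.762 to 0.921. The cause of these changes was not tested, except that the count without the filter rests on more sites.

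Leaving out 1 mouse at a time gave 6606 to 6828 sites off the median, 4580 to 4702 at 2-fold, a spread of 1.57 to 1.63, a Spearman correlation of -0.47 to -0.45, a median against the spike-in RNA of -0.97 to -0.91, 0 to 44 sites differing between slides, a KO minus WT difference in spread of -0.12 to -0.06 and in the correlation of -0.035 to -0.009.

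With no replicate block, the 2 colours treated as separate samples, 6679 sites passed (3741 higher and 2938 lower) and 4720 at 2-fold. Replicate numbers did not pair wild-type with knockout mice: same-numbered deviations correlated at -0.18 to 0.19, and 0 of 5 matched best with their own number. With the number as a replicate block the difference in spread was -0.085 (exact sign-flip permutation p = 0.0625, the smallest possible) and in the correlation -0.0198 (p = 0.562).

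The 4 extreme sites named, chosen as past the threshold, had ratios over 16 alternatives from 1.47 to 4.45 for the high pair and -7.17 to -4.30 for the low pair. The 2 middle sites moved with the centre itself when centred on the spike-in probes (-0.81 for both) or without the filter (0.53 for both). With normexp they were at -0.47 and -0.42 and with normexp and loess at 0.29 and 0.23, of which the first 3 passed the threshold. For dim sites the filter and the Cy5 background limit what can be seen.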
